A study of Caenorhabditis elegans with 6 samples.

Results

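Adults of the SIN strain were compared with adults of N2, the standard laboratory strain of the nematode Caenorhabditis elegans, which carries no transgene. The comparison uses 4 of the 6 libraries of the series, 2 of SIN and 2 of N2, and covers every gene of the deposited table, of which 15404 had enough reads to be tested. In SIN worms (strain OD1175) both copies of csr-1 carry the tm892 deletion, csr-1(tm892), and the worms are homozygous for transgenes as well. What the transgenes encode is not in the labels, but the study is known for a slicing-inactive CSR-1, which the name SIN stands for. The remaining 2 libraries are from WT worms (strain OD1463), which are also homozygous for csr-1(tm892) and for their transgenes, which in that study supply normal CSR-1, and their values are given beside the others where they bear on a result. SIN and WT homozygotes were recognised by the way they move among the progeny of balanced heterozygous mothers, whereas N2 needed no such choice. All worms were gravid adults kept at 20 °C on Escherichia coli OP50, and each library came from 100 picked worms, so that a library holds RNA of the germline, the body and the embryos carried inside. SIN thus differs from N2 in the csr-1 allele, the transgenes and the way the worms were obtained, and within this comparison these cannot be told apart.

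CSR-1 is an Argonaute protein of the germline. It binds 22G RNAs, small RNAs that the RNA-dependent RNA polymerase EGO-1 makes on messenger RNAs as templates, and its slicer activity lets it cut RNA that pairs with them. Most of its targets are genes that the germline expresses, and worms without CSR-1 are sterile or give embryos whose chromosomes fail to segregate.

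The SIN libraries held 39865531 and 34654600 counted reads, the WT libraries 42126710 and 33739391, and the N2 libraries 44962816 and 42435429. The N2 libraries were the least alike: the median absolute log2 difference per gene between replicates was 0.204 in SIN and 0.125 in WT, against 0.317 in N2. Whether replicates were separate cultures is not in the labels, so the spread behind the p-values is that of these libraries and may be technical. Every level below is in CPM, reads scaled to library size after TMM scaling, and adjusted p comes from the quasi-likelihood test of edgeR, adjusted by Benjamini and Hochberg's method over all 15404 genes and read at a threshold of 0.05. The libraries are shares of whole-worm mRNA, in which fewer cells of a type and less RNA per cell cannot be told apart.

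In SIN, 1899 genes (12.3% of those tested) were higher than in N2 and 2043 (13.3%) were lower, together 25.6%. Rises were larger than falls: the median was 2.49-fold among the higher genes and 1.63-fold among the lower ones. At least 2-fold rises numbered 1162 and falls 616 (7.54% and 4.0% of the tested genes), at least 4-fold rises 628 and falls 152, and at least 8-fold rises 344 and falls 41. Most of the 344 largest rises were transcripts near the limit of detection in N2. Of these, 313 had an N2 mean under 1 CPM, and 29 had a SIN mean of at least 20 CPM. Genes nearly silent in N2 pass the count filter through other libraries, so their direction is no separate support. When genes were split into 3 groups of like size by mean RPKM over all 6 libraries, the highest had 15.9% higher and 20.1% lower. At 2-fold or more the shares in that group were 4.85% and 1.29%. The shares over all tested genes and in that group are the background for the gene lists below. No list was tested against them, so its counts only describe its members. With upper-quartile scaling, 59.6% of the calls were rises, against 48.2% with TMM, so the balance of the 2 directions depended on the scaling. Leaving out SIN replicate 1 left 452 rises and 252 falls, and leaving out SIN replicate 2 left 645 and 264; without N2 replicate 1 there were 2388 and 3018, and without N2 replicate 2 there were 2532 and 3496. Such a fit has 1 library in a group, which is assumed to vary like the other groups. Without a SIN library the spread comes from the WT and N2 pairs, and without an N2 library from the SIN and WT pairs. The N2 pair was the least alike, so a call lost without a SIN library need not rest on that library. In 427 rises and 168 falls the call was made under every alternative setting.

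**Figure D1:**
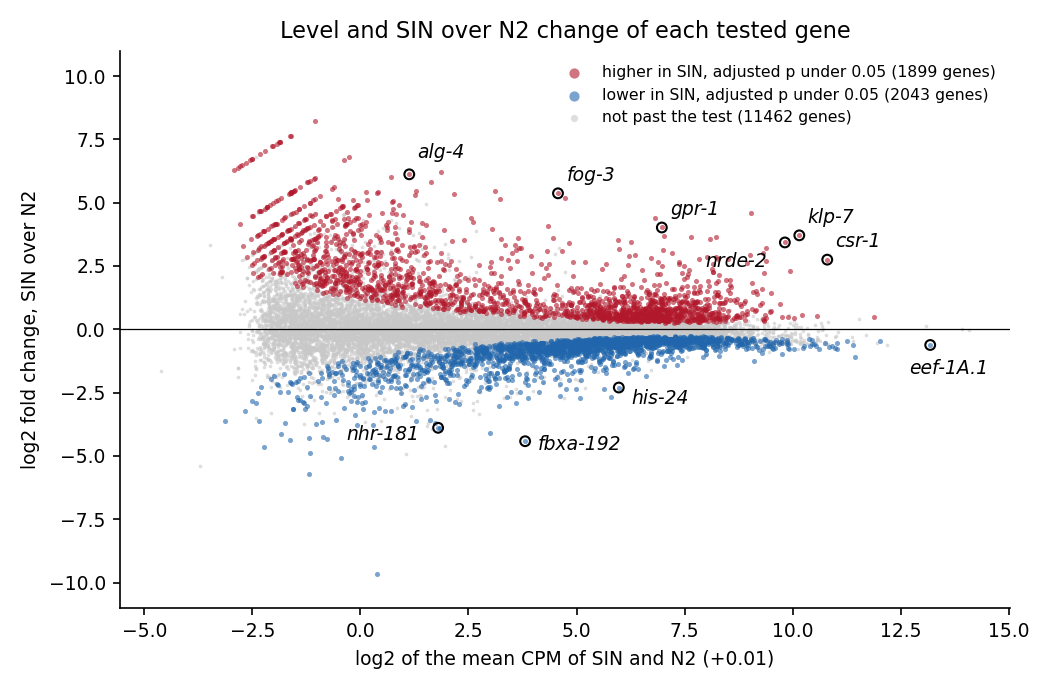
Log2 fold change of SIN over N2 (vertical axis) against the log2 of the mean CPM of both groups plus 0.01 (horizontal axis) for each of the 15404 tested genes; red and blue points are genes past the test in the 2 directions, and genes named in the text are ringed. More of the 1899 rises than of the 2043 falls lie far from 0 (344 and 41 at 8-fold or more), but 313 of these 344 had an N2 mean under 1 CPM. Among abundant transcripts csr-1, klp-7 and nrde-2 stand out.

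The transcript of csr-1 stood at 2913 and 3308 CPM in SIN, at 662 and 636 CPM in WT, and at 445.5 and 476 CPM in N2. The SIN libraries lay far above the rest, 6.75-fold over N2 (adjusted p = 7.18e-05). A single table row (chromosome IV, 7957267 to 7962157, WBcel235) holds all reads assigned to csr-1, whether from a transgene or the chromosome, and frpr-10 overlaps it on the same strand, so this value does not check the deletion. The gene unc-119, a common marker for selecting transgenic worms that is itself needed for neuronal development, went the other way, with 7.86 and 8.2 CPM in SIN, 7.92 and 8.41 CPM in WT, against 18 and 15.6 CPM in N2. It was 2.09-fold lower in SIN than in N2 (adjusted p = 0.00743), and the WT libraries were at the level of SIN. The call of unc-119 was lost without SIN replicate 1 (adjusted p = 0.0698) or SIN replicate 2 (adjusted p = 0.0603).

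Among the cofactors of CSR-1, the polymerase gene ego-1 rose with csr-1. It had 377 and 366 CPM in SIN, 176 and 180.0 CPM in WT, against 155.5 and 165 CPM in N2, 2.32-fold higher in SIN than in N2 (adjusted p = 0.000372). The helicase gene drh-3, whose product works with EGO-1, had 182 and 169 CPM in SIN and 161 and 151 CPM in N2, and the Tudor domain gene ekl-1 had 131 and 112 CPM in SIN and 114 and 120 CPM in N2; neither passed (adjusted p = 0.177 and 0.704). So 2 of the 4 tested members were higher, csr-1 and ego-1.

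Nuclear RNAi carries small RNA signals to nascent transcripts and chromatin. Its factor gene nrde-2 showed one of the largest changes of any abundant transcript, with 1596 and 1717 CPM in SIN, 194 and 196 CPM in WT, against 158 and 149.7 CPM in N2, 10.8-fold above N2 (adjusted p = 2.96e-05). The germline nuclear Argonaute gene hrde-1 was 1.4-fold higher (adjusted p = 0.019), and the somatic nuclear Argonaute gene nrde-3 was 2.46-fold lower, with 41.6 and 39.5 CPM in SIN and 124 and 75.5 CPM in N2 (adjusted p = 0.0144). In all, 2 of 5 tested members were higher and 1 lower (1 and 0 with either SIN library left out in turn). The calls of hrde-1 and nrde-3 were lost without SIN replicate 1 (adjusted p = 0.0985 and 0.101) or SIN replicate 2 (0.118 and 0.105), and that of nrde-2 was kept whichever of the 4 libraries was left out.

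Of 18 tested Argonaute genes other than csr-1 and the nuclear ones, 8 were higher in SIN and 3 lower, with a median log2 fold change of -0.14 against -0.07 for all genes. Germline Argonautes were among the rises. The Piwi gene prg-1, which binds the piRNAs, had 803 and 885 CPM in SIN and 302 and 289 CPM in N2, 2.86-fold higher (adjusted p = 0.00035; D2030.12 overlaps it on the other strand). The Argonaute gene ppw-2 was 4.74-fold higher, with 244 and 332 CPM in SIN and 60.3 and 61.4 CPM in N2 (adjusted p = 0.000447), and wago-4, which carries small RNA signals to the next generation, was 2.19-fold higher (adjusted p = 0.00151). The RNAi Argonaute gene rde-1 rose 1.55-fold (adjusted p = 0.00605). The call of rde-1 was lost without SIN replicate 1 (adjusted p = 0.052), and the other 3 were kept whichever library was left out; of the list, 3 rises and no fall were kept without SIN replicate 1, and 4 and no fall without SIN replicate 2.

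The Argonautes of spermatogenesis, alg-3 and alg-4, were almost absent from N2. The level of alg-4 was 3.06 and 5.53 CPM in SIN, 0.0734 and 0.583 CPM in WT, against 0 and 0.124 CPM in N2, a fitted 69.4-fold rise over N2 (adjusted p = 0.0208). The level of alg-3, which was added here after its values were seen, was 2.7 and 5.83 CPM in SIN, 0.122 and 0.583 CPM in WT, against 0.0865 and 0.371 CPM in N2 (18.7-fold, adjusted p = 0.0238). Both genes were higher in replicate 2 than in replicate 1 in each of the 3 strains. Being nearly silent in N2, alg-3 and alg-4 pass the count filter through other libraries, so their direction is no separate support. The call of alg-4 was lost without SIN replicate 1 (adjusted p = 0.0906) or SIN replicate 2 (0.112), and its fold was 33.5 without N2 replicate 1. The call of alg-3 was lost without SIN replicate 1 (0.0874), SIN replicate 2 (0.133, 11.8-fold) or N2 replicate 1 (0.0609, 11.3-fold), and its fold was 47.3 without N2 replicate 2.

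Mutator proteins, which build the bodies where many 22G RNAs are amplified, moved both ways, with 4 of 13 tested genes higher and 4 lower (2 and 3 without SIN replicate 1, and 3 and 2 without SIN replicate 2). The helicase gene mut-14 had 152.5 and 153 CPM in SIN, 42.3 and 39.9 CPM in WT, against 29 and 31 CPM in N2, 5.09-fold higher in SIN than in N2 (adjusted p = 5.81e-05), and mut-15 was 2.63-fold higher (adjusted p = 0.000291). The nuclease gene ZC477.5, now named rde-8, was 1.92-fold lower (adjusted p = 0.00277) and rde-11, whose product acts in exogenous RNAi, 1.74-fold lower (adjusted p = 0.00382). Of 10 tested genes for Dicer and the factors of its ERI complex, which make small interfering RNAs from double-stranded RNA, 6 were higher and 2 lower (3 and 0 without SIN replicate 1, and 6 and 0 without SIN replicate 2). They included rde-4, a double-stranded RNA binding partner of Dicer (1.83-fold, adjusted p = 0.0016), the Dicer gene dcr-1 (1.62-fold, adjusted p = 0.00445) and the polymerase gene rrf-3 (1.68-fold, adjusted p = 0.00454; it overlaps T05C12.11 on the opposite strand). Without SIN replicate 1, dcr-1 and rrf-3 were at adjusted p = 0.0508 and 0.0515.

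P granules are the RNA and protein condensates of germ cells in which CSR-1 resides. Of 16 tested P granule genes 6 were higher and 6 lower, with a median log2 fold change of -0.08 (upper-quartile scaling gave 6 rises, 2 falls and a median of 0.0). All 4 germline helicase genes of the GLH family were among the rises. For glh-1, the SIN libraries had 1481 and 1764 CPM, the WT libraries 514 and 548.5 CPM and the N2 libraries 297 and 364 CPM, 4.91-fold higher in SIN than in N2 (adjusted p = 0.000355). glh-4 was 4.52-fold higher (adjusted p = 7.18e-05) and glh-2 2.27-fold (adjusted p = 0.000423). The helicase gene ZK1067.2, known as znfx-1 and needed for inherited RNAi, had 355 and 408 CPM in SIN and 132 and 137.5 CPM in N2, 2.83-fold higher (adjusted p = 0.000341). The calls of these 4 named genes were kept whichever library was left out, whereas of the 6 falls none was called without SIN replicate 1 and 1 without SIN replicate 2.

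Genes that decide between sperm and oocyte fate were divided, with 9 of 22 tested members higher and 5 lower (median log2 fold change 0.09). The largest change was in fog-3, which directs germ cells to become sperm and whose level was 55.7 and 37.1 CPM in SIN, 2.59 and 2.12 CPM in WT, against 0.865 and 1.39 CPM in N2. Both SIN libraries lay far above the other 4, 41.4-fold over N2 (adjusted p = 0.000341). Its partner in sperm fate, fog-1, was 4.0-fold higher (adjusted p = 0.00184). The RNA-binding regulators fbf-1 and fbf-2, close copies whose reads may be divided between them and the first of which overlaps H12I13.6, were 7.46-fold and 5.15-fold higher (adjusted p = 6.02e-05 and 0.00119), with 125 and 137 CPM for fbf-1 in SIN against 16.4 and 18.6 CPM in N2. The calls of fog-1, fog-3, fbf-1 and fbf-2 were kept whichever library was left out; the list had 4 rises and 2 falls without SIN replicate 1, and 5 and 1 without SIN replicate 2.

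Spindle, centrosome and cytokinesis genes made up one of the lists with the most rises, 27 of 55 tested members against 7 falls, with a median log2 fold change of 0.42. The most abundant of the named rises was the kinesin gene klp-7, whose product shortens microtubules at centrosomes and kinetochores and which had 2156 and 2083 CPM in SIN, 236 and 236 CPM in WT, against 159.5 and 163 CPM in N2, 13.1-fold above N2 (adjusted p = 2.72e-05). The largest fold in the list was that of gpr-1, which with gpr-2 links the force generators of the spindle to the cell cortex. For gpr-1 the values were 248 and 226 CPM in SIN, 21.1 and 20.7 CPM in WT, against 14 and 15.1 CPM in N2 (16.3-fold, adjusted p = 2.72e-05), and gpr-2 was 12.8-fold higher (adjusted p = 2.72e-05). The minus-end kinesin gene klp-16 was 9.22-fold higher, with 1265 and 1139.7 CPM in SIN and 128 and 133 CPM in N2 (adjusted p = 3.04e-05). Reads of the gpr pair, and of klp-16 and its near-identical copy klp-15, may be divided between the copies. None of these 4 calls was lost when a library was left out, and the list had 22 rises and 1 fall without SIN replicate 1, and 23 and 1 without SIN replicate 2.

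The opposite direction was seen in cls-3, a CLASP family gene that overlaps ZC84.7 on the other strand, with 10.1 and 7.84 CPM in SIN, 18.8 and 16 CPM in WT, against 46.5 and 34.1 CPM in N2, 4.49-fold lower (adjusted p = 0.00178). Kinetochore and spindle checkpoint genes had 10 rises and 1 fall among 27 tested, with a median log2 fold change of 0.08 (6 rises and no fall without SIN replicate 1, and 8 and no fall without SIN replicate 2). The centromeric histone gene hcp-3, the CENP-A of the worm, had 658 and 608 CPM in SIN, 178 and 172 CPM in WT, against 92.1 and 92.8 CPM in N2 (6.85-fold, adjusted p = 3.04e-05; F58A4.6 overlaps it on the other strand). The dynein recruiting gene spdl-1 was 6.37-fold higher (adjusted p = 7.01e-05), and hcp-4, the CENP-C of the worm, 2.81-fold (adjusted p = 0.00184). For hcp-3 the SIN libraries were far above WT, and WT in turn lay above N2.

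Most meiotic chromosome genes were higher, 26 of 41 tested members, against 3 falls (median log2 fold change 0.54). The axis gene htp-1 had 543 and 546 CPM in SIN, 109 and 107 CPM in WT, against 79.1 and 79.3 CPM in N2, 6.88-fold higher in SIN than in N2 (adjusted p = 2.72e-05), although htp-2 is a close copy. The pairing kinase gene chk-2 had 124 and 157 CPM in SIN, 10.8 and 10.9 CPM in WT, against 9.92 and 16.3 CPM in N2 (10.7-fold, adjusted p = 0.000845). The crossover gene msh-5, the synaptonemal complex gene syp-4 and the polo kinase gene plk-2 were 2.24-fold, 2.13-fold and 2.01-fold higher (adjusted p = 0.000363, 0.000508 and 0.000819). These 5 calls were kept whichever library was left out, although the list then held 14 rises without SIN replicate 1 and 22 without SIN replicate 2.

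Cell cycle and DNA replication genes showed more falls than rises, 14 against 9 of 43 tested (median log2 fold change -0.22), but 10 falls and 11 rises with upper-quartile scaling, 2 falls and 4 rises without SIN replicate 1, and no fall and 6 rises without SIN replicate 2. The mitotic kinase gene cdk-1 had 826 and 778 CPM in SIN and 285 and 284.5 CPM in N2, 2.81-fold higher (adjusted p = 0.000336), and the polo kinase gene plk-1 was 1.74-fold higher (adjusted p = 0.00237). The replicative helicase gene mcm-4, which overlaps Y39G10AR.7 on the other strand, had 169.6 and 143 CPM in SIN and 373 and 295 CPM in N2, 2.13-fold lower (adjusted p = 0.0043, and 0.055 without SIN replicate 2). DNA damage and apoptosis genes had 5 rises and 1 fall among 14 tested. Fewer were called in each direction with either SIN library left out in turn. The share called was 42.9%, against 25.6% over all tested genes, and this difference was not tested. The rises included the p53 relative cep-1 (2.11-fold, adjusted p = 0.000826) and the checkpoint kinase gene atl-1 (1.91-fold, adjusted p = 0.00126).

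**Figure D2:**
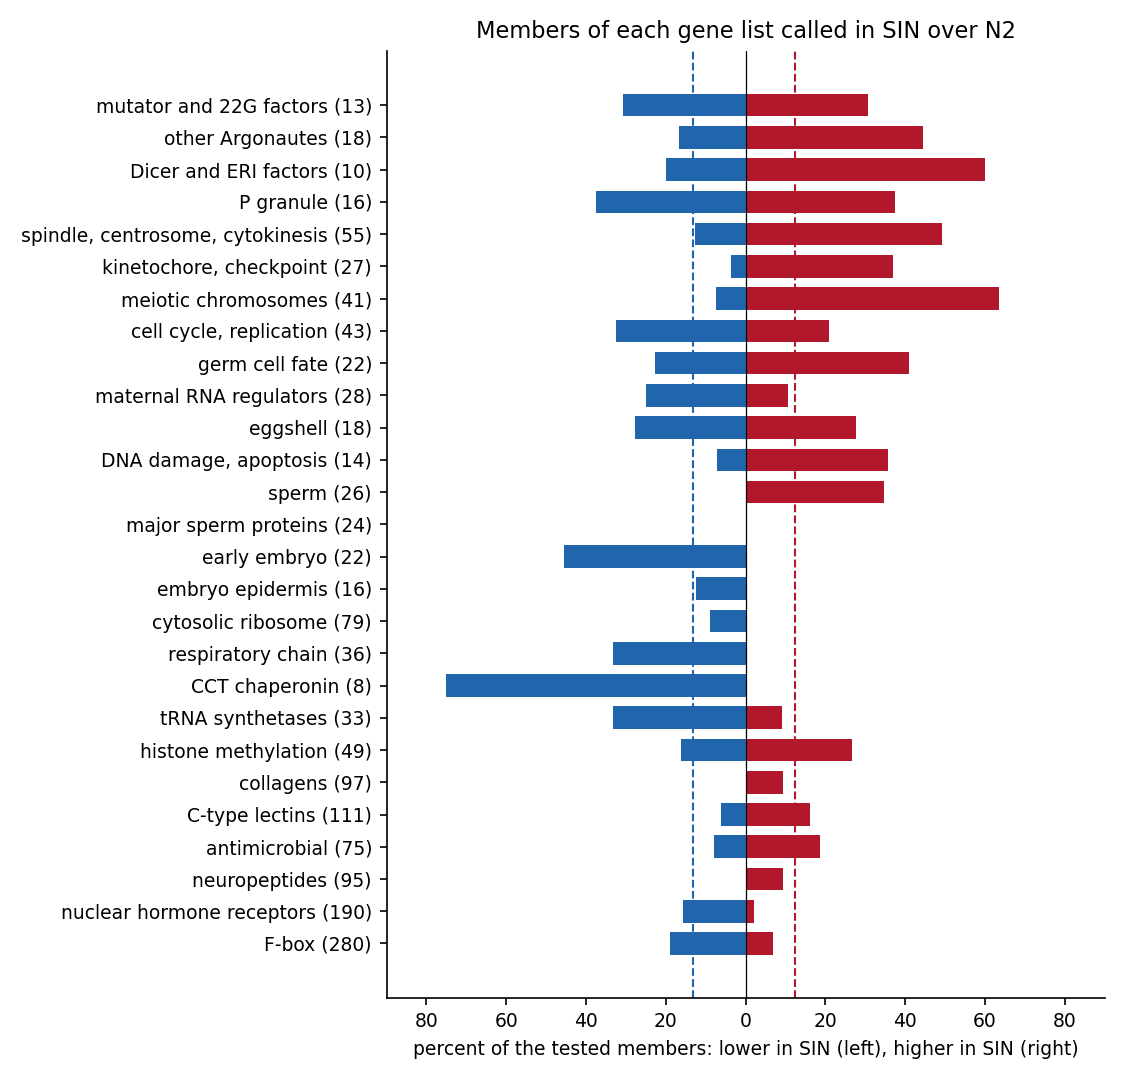
Percent of the tested members of 27 gene lists that were lower (blue, to the left) or higher (red, to the right) in SIN than in N2, with the number tested in parentheses; dashed lines are the shares over all tested genes, 13.3% lower and 12.3% higher. Meiotic chromosome, spindle and Dicer lists extend far to the right (26 of 41, 27 of 55 and 6 of 10), and the CCT chaperonin and early embryo lists far to the left (6 of 8 and 10 of 22). No list was tested against the dashed lines.

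By fold, the largest rises with a mean of at least 2 CPM in SIN were in transcripts with almost no reads in N2. F21F3.3, now named icmt-1, had 7.03 and 7.28 CPM in SIN, 0.0245 and 0.215 CPM in WT, against 0.0432 and 0.148 CPM in N2, 74.2-fold higher in SIN than in N2 (adjusted p = 0.00395). After alg-4 came F23B2.10 (65.0-fold), Y39B6A.25 (56.2-fold) and dot-1.2, a relative of the histone methyltransferase DOT1 (44.5-fold). W01C9.2 was the most abundant of the group, with 21.4 and 12.5 CPM in SIN, 0.245 and 0.307 CPM in WT, against 0.367 and 0.396 CPM in N2 (44.2-fold, adjusted p = 0.000376). All lay below 0.4 CPM in each N2 library. A ranking by fold favours such genes, which pass the count filter through other libraries. Their near absence from N2 thus follows in part from the rule. The call of F21F3.3 was lost without SIN replicate 1 (adjusted p = 0.0536), and its fold was 46.9 without N2 replicate 1 and 153.8 without N2 replicate 2; that of F23B2.10 was 41.4 and 130.0.

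Among genes with a gene-class symbol and at least 20 CPM in SIN, fog-3 was followed by snpc-1.3, which encodes a factor for piRNA transcription in the male germline. It had 60.2 and 43.6 CPM in SIN, 3.72 and 3.16 CPM in WT, against 1.45 and 1.41 CPM in N2, 36.2-fold higher in SIN than in N2 (adjusted p = 7.5e-05; acl-6 overlaps it on the other strand). Of the 10 genes this rule takes, 3 were members of the enu-3 family. For enu-3.5 the values were 36.2 and 40.3 CPM in SIN, 3.96 and 4.08 CPM in WT, against 2.25 and 2.28 CPM in N2 (16.9-fold, adjusted p = 6.02e-05), and enu-3.6 and enu-3.1 were 12-fold and 10.5-fold higher (adjusted p = 0.000588 and 0.000341). In absolute terms the largest gains in CPM were those of csr-1, klp-7, nrde-2, glh-1 and ctc-1, a subunit of cytochrome oxidase encoded in the mitochondrial genome. ctc-1 rose by the smallest fold of these, with 4394 and 4376 CPM in SIN and 2967 and 3271.5 CPM in N2 (1.41-fold, adjusted p = 0.0293, and 0.173 and 0.164 without SIN replicates 1 and 2).

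**Figure D3:**
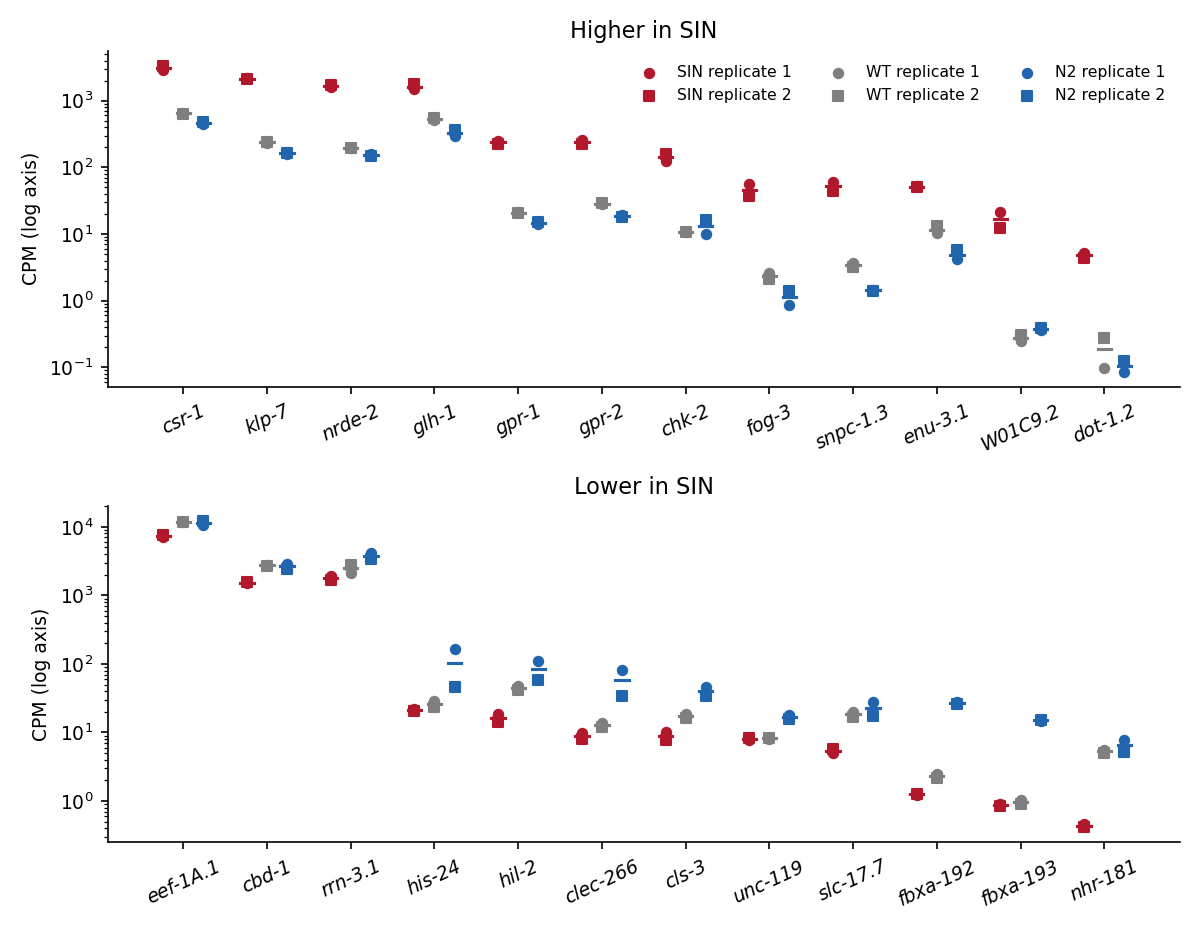
CPM on a log axis of 24 named genes in each library, SIN in red, WT in grey and N2 in blue; circles are replicate 1, squares replicate 2 and short lines the mean of both. In the upper panel the SIN libraries lie above both other strains and WT is mostly near N2, as for nrde-2 (1596 and 1717 CPM in SIN, 158 and 149.7 CPM in N2); in the lower panel WT is near SIN for unc-119 and fbxa-193 and near N2 for eef-1A.1, and the 2 N2 libraries differ for his-24 and clec-266.

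Sperm genes were higher in SIN in 9 of 26 tested members and lower in none, with a median log2 fold change of 2.09 (3 and 2 rises without SIN replicates 1 and 2). The sperm kinase gene spe-6 had 22 and 20.9 CPM in SIN, 9.29 and 10.3 CPM in WT, against 3.18 and 3.44 CPM in N2, 6.48-fold higher in SIN than in N2 (adjusted p = 0.000336). The myosin gene spe-15, which overlaps gst-25 on the other strand, had 56.7 and 48.0 CPM in SIN and 8.99 and 7.59 CPM in N2 (6.31-fold, adjusted p = 0.000376). The kinase gene spe-8 had 1 read over both N2 libraries and 0.526 and 0.726 CPM in SIN, a ratio of 53.6 with an exact 95% counting interval of 9.16 to 2159 (adjusted p = 0.016; 0.103 and 0.126 without SIN replicates 1 and 2). The summed level was 239 and 233 CPM in SIN, 167 and 169 CPM in WT, against 144 and 126.5 CPM in N2. Of 29 listed genes 26 passed the count filter. A gene nearly silent in N2, such as spe-8, passes it through other libraries, so the direction of such members is no separate support.

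The major sperm protein genes encode the cytoskeleton of mature sperm. None of the 24 tested members was called in either direction by the reported edgeR fit or by DESeq2, and 0 had an unadjusted p under 0.05. With the replicate number as a block edgeR called 13 of them higher, but no label pairs the replicates, and 2 pairs are too few to show a pairing. All 24 had a positive log2 fold change, with a median of 2.25 (1.22 and 5.5 without N2 replicates 1 and 2). Their summed level was 16.3 and 46.5 CPM in SIN, 2.59 and 40.0 CPM in WT, against 1.53 and 14.6 CPM in N2, so that both SIN sums lay above both N2 sums, and replicate 2 exceeded replicate 1 in every strain. Near-identical copies of these genes share reads. Of 35 listed genes 24 passed the count filter, and 8 of these had no read in N2 replicate 1. Members can pass that filter through the libraries in which they are high, so their shared direction is no separate support.

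Falls were led by genes that were low in both transgenic strains. F56A4.3 (chromosome V, 2453414 to 2456147) had no read in either SIN or either WT library and 2.36 and 2.82 CPM in N2. Taking 3 reads over both SIN libraries as the limit, it was at least 66.6-fold lower in SIN than in N2 (adjusted p = 0.00333). A group of F-box genes lies side by side on the same chromosome; F-box proteins select other proteins for ubiquitination, but fbxa-191 and fbxa-193 are annotated as pseudogenes. For fbxa-192 (17640672 to 17650527) the values were 1.22 and 1.28 CPM in SIN, 2.45 and 2.15 CPM in WT, against 28 and 25.6 CPM in N2, 21.4-fold lower in SIN than in N2 (adjusted p = 7.18e-05). fbxa-193 (17653482 to 17655281) had 0.908 and 0.837 CPM in SIN, 1.05 and 0.89 CPM in WT, against 14.9 and 15.4 CPM in N2 (17.3-fold lower, adjusted p = 0.000186), and fbxa-191 (17637982 to 17640042) was 14.7-fold lower (adjusted p = 0.00388). The WT libraries of fbxa-192 and fbxa-193 lay far below N2 as well. The call of fbxa-191 was lost without SIN replicate 1 (adjusted p = 0.0667) or SIN replicate 2 (0.0636).

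The nuclear hormone receptor gene nhr-181 was low in SIN alone. It had 0.454 and 0.419 CPM in SIN, 5.53 and 5.06 CPM in WT, against 7.82 and 5.17 CPM in N2, 14.8-fold lower in SIN than in N2 (adjusted p = 0.000788). A similar order was seen for the transporter gene slc-17.7, with 4.97 and 5.66 CPM in SIN, 19.9 and 16.7 CPM in WT, against 28.2 and 17.2 CPM in N2 (4.28-fold, adjusted p = 0.00423; 0.0673 and 0.0543 without SIN replicates 1 and 2). The lectin gene clec-70 was 25-fold lower in SIN, but its N2 libraries stood at 0.843 and 3.88 CPM (adjusted p = 0.0146; 0.12 with either SIN library left out in turn; 41.9-fold and 9.11-fold without N2 replicates 1 and 2).

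Several of the remaining large falls rested on levels that differed between the N2 libraries. The linker histone gene his-24 had 22.1 and 20.5 CPM in SIN, 28.5 and 23.2 CPM in WT, against 163 and 46.3 CPM in N2 (4.92-fold lower, adjusted p = 0.038; 2.19-fold without N2 replicate 1 and 7.69-fold without N2 replicate 2). Another linker histone gene, hil-2, had 18.7 and 14.3 CPM in SIN, 47.6 and 41.2 CPM in WT, against 109 and 58.4 CPM in N2 (5.06-fold lower, adjusted p = 0.00672). The lectin gene clec-266, which overlaps kqt-1 on the other strand, was 6.49-fold lower, fbxc-51 5.52-fold and the bZIP factor gene zip-8 4.6-fold, and each had its highest level in N2 replicate 1 (3.83-fold, 2.93-fold and 2.67-fold without it). For the glucuronosyltransferase gene ugt-13 (7.63-fold lower) and the protease gene asp-12 (6.47-fold) N2 replicate 2 was the higher library, and without it the folds were 3.31 and 2.82 (12 and 10.2 without N2 replicate 1). These 7 genes were picked among called genes whose SIN and N2 libraries do not overlap, so that separation follows from the rule. None of the 7 calls was kept without SIN replicate 1 or SIN replicate 2.

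Genes of the early embryo, which adults carry inside, were mostly lower in SIN. Of 22 tested genes first transcribed in early embryos, 10 were lower and none higher, and 21 had a log2 fold change below 0, with a median of -1.3. The homeobox gene ceh-51 had 0.191 and 0.0558 CPM in SIN, 1.42 and 1.23 CPM in WT, against 2.16 and 1.34 CPM in N2, 13.5-fold lower in SIN than in N2 (adjusted p = 0.00712; it overlaps emb-4 on the other strand, and was 29.7-fold lower without SIN replicate 1 and at adjusted p = 0.0543 without SIN replicate 2). The T-box gene tbx-9 had 14 and 12 CPM in SIN and 23.8 and 23.1 CPM in N2 (1.79-fold lower, adjusted p = 0.00981; 0.0645 without SIN replicate 2). Summed, the early embryo genes were at 60.9 and 57.8 CPM in SIN, 87.2 and 84.6 CPM in WT, against 153 and 89.2 CPM in N2. The groups did not overlap, and N2 replicate 1 stood highest; the median was -0.8 without it, and 18 of the 22 were called lower without N2 replicate 2, but 2 without SIN replicate 1 and none without SIN replicate 2.

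Epidermal genes of later embryos separated N2 replicate 1 from all other libraries. Their sum was 226 and 244 CPM in SIN, 209 and 205 CPM in WT, against 740.2 and 289 CPM in N2. Of 16 tested members 2 were lower in SIN, dpy-10 and lin-26 (13 without N2 replicate 2), and the median log2 fold change of -1.98 was -0.13 without N2 replicate 1 and -2.75 without N2 replicate 2. The collagen gene dpy-10 had 3.2 and 2.46 CPM in SIN and 27.1 and 9.1 CPM in N2 (6.39-fold lower, adjusted p = 0.0179; 3.23-fold without N2 replicate 1; adjusted p = 0.112 and 0.13 without SIN replicates 1 and 2). The epidermal factor gene lin-26 overlaps lir-1 on the same strand and was 1.33-fold lower (adjusted p = 0.0296; 0.0975 and 0.153 without SIN replicates 1 and 2). The linker histone and lectin genes with high levels in N2 replicate 1 go with these markers by library; the part of embryo content in those falls was not tested.

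Markers of adult tissues moved less than early embryo genes by median log2 fold change. The median was -0.25 for intestinal, -0.2 for muscle and -0.08 for neuronal markers, against -1.3 for early embryo genes. Without N2 replicates 1 and 2 the muscle median was -0.58 and 0.23, and the early embryo median -0.8 and -1.66. Intestinal markers had 3 falls among 17 tested and muscle markers 2 among 25 (1 and 0 with upper-quartile scaling), and neuronal markers had 2 rises and 2 falls among 25. The intestinal share lower, 17.6%, was above the 13.3% over all tested genes, and the muscle share, 8.0%, was below it. These differences in share were not tested. One of the 2 neuronal rises was that of unc-31, needed for release of dense-core vesicles. It had 29.6 and 24.3 CPM in SIN, 3.18 and 2.7 CPM in WT, against 4.0 and 3.29 CPM in N2 (7.38-fold higher, adjusted p = 0.000508). The summed level of the neuronal markers was 667 and 657 CPM in SIN, 630 and 629 CPM in WT, against 623 and 623 CPM in N2. Of 12 core germline genes 5 were higher and 5 lower, and their sum was 7283 and 7821 CPM in SIN and 7453 and 7523 CPM in N2. Among 6 vitellogenin genes, which encode yolk, vit-4 was 1.31-fold lower (adjusted p = 0.0453; 0.237 and 0.156 without SIN replicates 1 and 2) and the other 5 did not pass. With either SIN library left out in turn the neuronal list had 1 rise and no fall and the muscle list no call, and the 5 germline falls were not called.

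**Figure D4:**
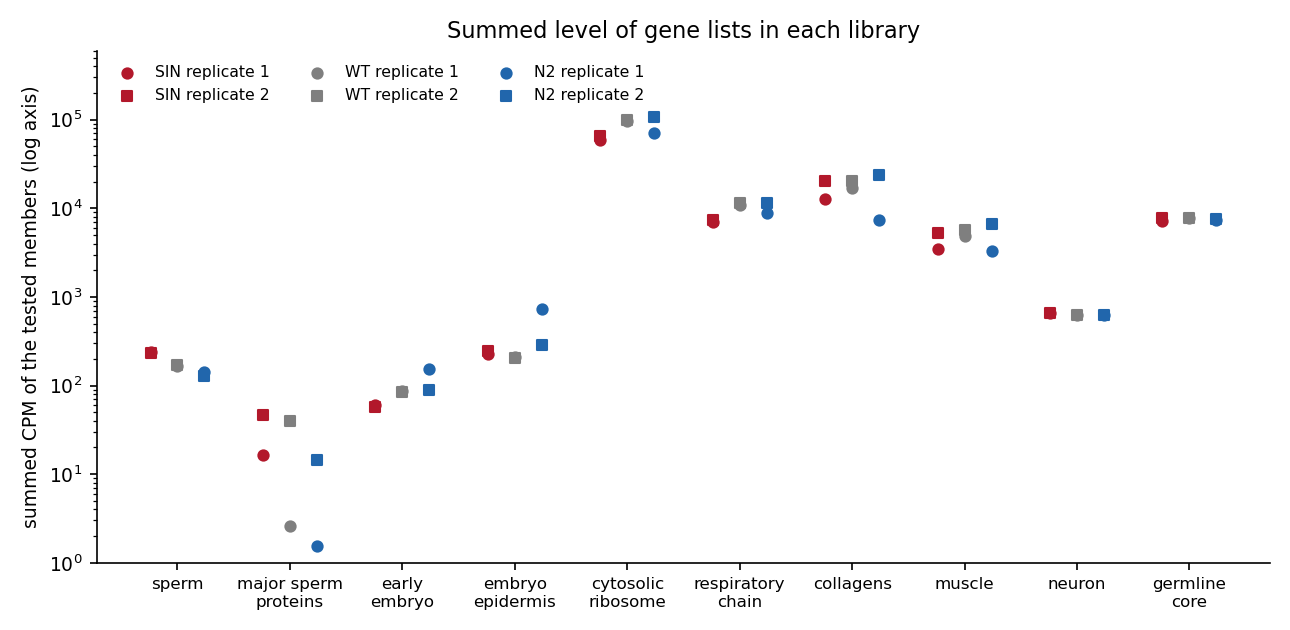
Summed CPM (log axis) of the tested members of 10 gene lists in each library, SIN in red, WT in grey and N2 in blue; circles are replicate 1 and squares replicate 2. Sperm genes are highest in SIN (239 and 233 CPM), early embryo genes are lowest in SIN (60.9 and 57.8 CPM), and N2 replicate 1 stands apart from N2 replicate 2 for embryo epidermis, collagen and muscle genes.

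Falls among genes of protein synthesis and respiration were small in fold. Translation elongation factor eef-1A.1, which brings aminoacylated tRNA to the ribosome and overlaps F31E3.12 on the other strand, had 7111 and 7574 CPM in SIN, 11781 and 11755 CPM in WT, against 10519.8 and 12037.5 CPM in N2, the largest loss in CPM of any called gene (1.54-fold lower, adjusted p = 0.0255). Next by size of loss were the ribosomal RNA gene rrn-3.1 (2.13-fold, adjusted p = 0.00926), a residue in poly(A)-selected libraries, eef-2 (1.38-fold, adjusted p = 0.0452), the ribosomal protein gene rpl-3 (1.55-fold, adjusted p = 0.0412) and the eggshell gene cbd-1 (1.72-fold, adjusted p = 0.00852). These 5 calls were lost without SIN replicate 1 (adjusted p = 0.0843 to 0.28) or SIN replicate 2 (0.0802 to 0.169).

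Of 79 tested genes for cytosolic ribosomal proteins 7 were lower and none higher (0 and 0 with upper-quartile scaling). The share lower was 8.86%, below the 13.3% over all tested genes. The median log2 fold change was -0.5 (-0.41 with upper-quartile scaling), against -0.07 for all genes. Their sum was 59032 and 65172 CPM in SIN, 95465 and 98029.8 CPM in WT, against 70017 and 106005 CPM in N2. N2 replicate 1 thus lay closer to SIN than to N2 replicate 2, and without it 76 of the 79 were called lower, with a median of -0.78. Without N2 replicate 2, 17 were lower and 1 higher; DESeq2 called 30 lower; and with either SIN library left out in turn none was called. The CCT chaperonin, which folds actin and tubulin, had 6 of 8 subunit genes lower (2 with upper-quartile scaling), cct-8 with 246 and 271 CPM in SIN, 406.5 and 430.1 CPM in WT, against 412 and 466.5 CPM in N2 (1.7-fold, adjusted p = 0.0053). Respiratory chain and ATP synthase genes were lower in 12 of 36 tested members and higher in none (8 lower with upper-quartile scaling), and atp-2, which encodes a catalytic subunit of ATP synthase, was 1.64-fold lower (adjusted p = 0.0142). Among aminoacyl-tRNA synthetase genes 11 of 33 were lower and 3 higher (6 and 4 with upper-quartile scaling). Without SIN replicate 1 no chaperonin or respiratory gene was called, and without SIN replicate 2 there was 1 fall in each list. The synthetase list then had 2 falls and 2 rises, and 1 and 2. The calls of cct-8 and atp-2 were lost without SIN replicate 1 (adjusted p = 0.0681 and 0.132), and that of atp-2 without SIN replicate 2 (0.0878).

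The deposited table also gives the 22G RNA of each gene from other studies. Of 4114 tested genes listed with 22G RNAs in the Claycomb data, the lowest by 22G RNA (1371 genes) had 4.01% higher and 29.2% lower in SIN, the middle (1371 genes) 12.3% and 18.4%, and the highest (1372 genes) 39.1% and 10.6%. The median log2 fold changes were -0.27, -0.11 and 0.18. In the fit with upper-quartile scaling the lowest group had 83 rises and 286 falls, and the highest 619 and 88. Without SIN replicate 1 the rises were 16, 39 and 274 by increasing 22G RNA, and without SIN replicate 2 they were 31, 73 and 345. The 400 falls of the lowest group became 66 and 51, and the 145 falls of the highest group 10 and 11. Genes with more 22G RNA were longer, with a median length of 1383, 1722 and 2685 bases, and had median N2 levels of 45.1, 52.3 and 48.7 RPKM; the part of length in the order was not tested. Among genes listed with 22G RNAs in the Conine immunoprecipitate of CSR-1 but not by Claycomb, 24.1% of 1527 were higher and 12.7% lower. Most of these rises, 350 of 368, were at least 2-fold. The same held for 678 of the 684 rises in the lowest of the 3 groups by level, whatever their listing. The excess of rises over the 194 falls in that class was absent without N2 replicate 1 (330 rises, 331 falls), and there were 44 rises and 28 falls without SIN replicate 1, and 50 and 22 without SIN replicate 2. That class is low in N2, with a median of 1.53 RPKM. Its members that are nearly silent in N2 pass the count filter through other libraries, so their direction is no separate support. Of the 344 genes at least 8-fold higher, 60.5% were listed in the immunoprecipitate and 5.52% by Claycomb, against 34.1% and 26.7% of all tested genes. The germline enriched mark was carried by 51.7%, against 17.6%. Of these 344 genes, 313 had an N2 mean under 1 CPM, and the part of level in these shares was not tested.

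The deposited germline classes were described by their shares of calls. Of 2713 germline enriched genes 26.4% were higher and 16.7% lower, of 4624 germline expressed genes 13.6% and 22.8%, of 1056 germline specific genes 11.5% and 26.0%, and of 9546 genes with no mark 8.98% and 9.24%. At 2-fold or more the shares higher and lower were 15.7% and 1.95% for germline enriched, 4.3% and 2.6% for germline expressed, 3.79% and 1.04% for germline specific and 6.74% and 4.95% for unmarked genes, so the order of the classes depended on the fold asked for. The classes also differ in level, with median N2 levels of 34.8, 43.3, 87 and 2.2 RPKM, and over all tested genes the share called was 17.2%, 23.5% and 36% by increasing level; the part of level was not tested. The excess of falls among germline expressed genes (629 rises, 1052 falls) was not stable, with 780 rises and 755 falls under upper-quartile scaling, 250 and 151 without SIN replicate 1, and 345 and 133 without SIN replicate 2. Germline specific genes (121 rises, 275 falls) likewise had 51 and 40 without SIN replicate 1, and 66 and 25 without SIN replicate 2. A gene can hold several marks, which are the authors' deposited classes.

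Chromosome X held few rises. Of its 2128 tested genes 3.24% were higher in SIN and 17.2% lower, whereas 13.8% of the 13146 autosomal genes were higher and 12.7% lower, with median log2 fold changes of -0.26 and -0.04. With upper-quartile scaling 83 X-linked genes were higher and 269 lower, against 69 and 367 with TMM. The X-linked rises and falls were 9 and 28 without SIN replicate 1, 10 and 68 without SIN replicate 2, 133 and 435 without N2 replicate 1, and 134 and 636 without N2 replicate 2, beside 441 and 223, 633 and 195, 2205 and 2521, and 2324 and 2716 on the autosomes. Among genes with no germline mark 3.5% on X and 10.2% on autosomes were higher (8 and 109 genes without SIN replicate 1, and 9 and 183 without SIN replicate 2). Among genes with a mark 2.18% and 19% were higher and 39.1% and 18.4% lower. Of the 344 genes at least 8-fold higher, 9 were on X, among them dot-1.2. These shares were not tested, since neighbouring and co-regulated genes are not independent.

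**Figure D5:**
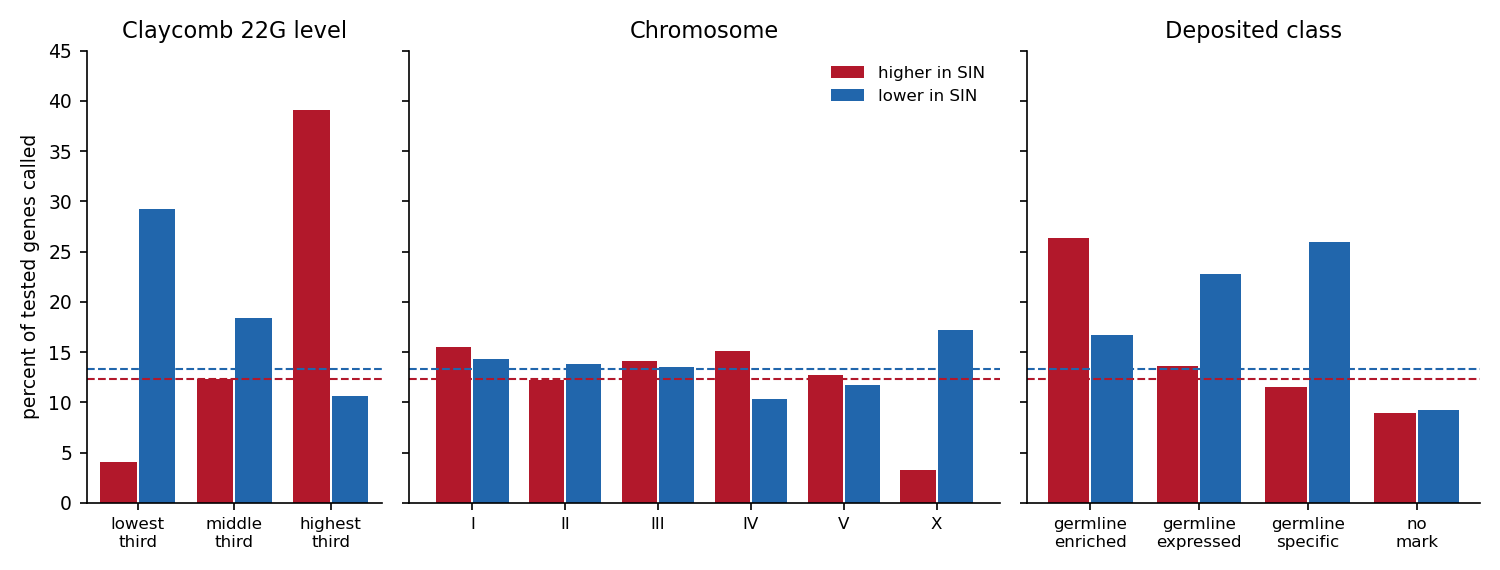
Percent of tested genes that were higher (red) or lower (blue) in SIN than in N2, by Claycomb 22G level in 3 groups of like size, by chromosome and by the deposited germline class; dashed lines are the shares over all tested genes, 12.3% higher and 13.3% lower. The share of rises goes with the 22G level, with 4.01% in the lowest and 39.1% in the highest, and chromosome X has the lowest share of rises, 3.24%.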

How the data were processed

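Per the file headers, the deposited table gives counts of reads for 46748 genes in 6 libraries and the authors' RPKM per group. STAR, HTSeq, DESeq, DESeq2 and the build WBcel235 appear in the submitters' processing notes. Per the labels' protocols, libraries were strand-specific and poly(A)-selected, from 500 ng of total RNA, read as 50-base single ends. How strand was set in counting is not given in the sources used, so genes that overlap on either strand cannot be separated. Further columns used are the authors' 22G score (Claycomb), a 22G RPM in a CSR-1 immunoprecipitate (Conine), and germline marks. The authors' log2 fold change, p-value, ratio and enrichment fraction columns, which the authors deposited in the same table, were not used for any result.

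Counts were tested with edgeR 4.0.16 (limma 3.58.1, R 4.3.3): TMM scaling, filterByExpr (minimum count 10, minimum total 15) and a robust quasi-likelihood fit of all 6 libraries with 3 group means, 3 residual degrees of freedom and a biological coefficient of variation of 0.219. All 6 libraries share the estimate of spread. A gene with no read in a group has a bound from 3 reads over that group, and a ratio against 1 to 3 reads has a 95% exact counting interval, and neither covers more than counting error. Gene overlaps and coordinates come from the WBcel235 annotation, matched by WormBase ID for 46449 genes.

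The comparison, the gene lists and the rule for named genes were chosen with earlier results of these data known. The rule names csr-1, klp-7 and unc-119 and, among called genes whose libraries do not overlap, the 6 largest rises and falls with a mean of at least 2 CPM in the higher group, the 10 largest with a gene-class symbol and at least 20 CPM, the 5 with the largest difference in CPM, and up to 4 members per list with the smallest p. The alternatives were RLE and upper-quartile scaling, no filter, DESeq2 1.42.0, only the SIN and N2 libraries, each of these libraries left out, and the replicate number as a block. Levels set by N2 alone were not used to split genes.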

Additional observations from a re-analysis of the deposited data

How the results depend on the processing

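Genes called higher and lower numbered 1899 and 2043. RLE scaling gave 1954 and 1749, upper-quartile scaling 2202 and 1490, DESeq2 2060 and 2330, no filter on 24486 genes 2613 and 3309, and the SIN and N2 libraries alone 1289 and 625. Leaving out 1 library gave 452 to 2532 rises and 252 to 3496 falls. The log2 fold change of unc-119 was -1.17 to -0.97 in these fits, with the call lost when either SIN library was left out; csr-1 (2.66 to 2.84) and klp-7 (3.69 to 3.8) kept their calls under every alternative. Of 40 named genes none reversed under any alternative; 19 lost their call without SIN replicate 1, 18 without SIN replicate 2, 7 with only the SIN and N2 libraries, 3 with upper-quartile scaling and 1 each with RLE scaling and the replicate block. These 40 leave out the genes named only as members of a gene list. Calls shared with the reported ones were 92.5% of them under RLE scaling and 85.7% under upper-quartile scaling. With DESeq2 the share was 93.3%, and with the 4 libraries alone 47.6%. The replicate numbers are shared between strains, but no label says that they mark a common culture or day, and 2 pairs are too few to show it; deviations from the group means correlated at 0.377 between SIN and N2, 0.344 between SIN and WT and 0.236 between WT and N2. With the number as a replicate block there were 2390 rises and 2517 falls, and 13 of the 24 major sperm protein genes were called higher. With 2 libraries a group, an exact permutation test of a single gene cannot go below a two-sided p of 0.333, and depth limits genes near 1 read.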

Other observations

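Families of several named genes are described here; they were picked after their values were seen and carry no test as groups. All 6 tested enu-3 genes were higher in SIN than in N2, from 2.11 to 4.41 on the log2 scale, and their summed level was 208 and 209 CPM in SIN, 41.1 and 43.9 CPM in WT, against 22.2 and 28.1 CPM in N2. Among 8 snpc genes, relatives of the complex that activates small nuclear RNA transcription, 6 were higher and 2 did not pass (4 higher with either SIN library left out in turn). Besides snpc-1.3, snpc-3.2 had 16 and 15.2 CPM in SIN, 1.44 and 1.96 CPM in WT, against 0.886 and 1.09 CPM in N2 (log2 fold change 3.98, adjusted p = 0.00035), and snpc-3.1 had 21.1 and 22.3 CPM in SIN, 2.4 and 3.01 CPM in WT, against 1.79 and 2.6 CPM in N2 (3.31, adjusted p = 0.000606). Both overlap another gene on the opposite strand, Y48G1BR.1 and T11F8.5. The piRNA transcription factor gene snpc-4, which overlaps mdt-31 on the same strand, had 182 and 177 CPM in SIN and 155 and 143 CPM in N2 (0.27, adjusted p = 0.0495; 0.0715 without N2 replicate 2, and 0.172 and 0.136 without SIN replicates 1 and 2). Of 9 linker histone genes, his-24 and hil-2 were lower, 6 did not pass, and hil-4 was higher, with 635 and 537 CPM in SIN and 260.4 and 257.5 CPM in N2 (1.18, adjusted p = 0.0014).

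Histone methylation genes had 13 rises and 8 falls among 49 tested (9 and 1 without SIN replicate 1, and 10 and 2 without SIN replicate 2). The SET domain gene set-31, which overlaps dhs-22 on the other strand, was 8.77-fold higher, with 214 and 243 CPM in SIN, 37.8 and 37.4 CPM in WT, against 27.3 and 24.8 CPM in N2 (adjusted p = 3.16e-05). set-9 and set-21 were 3.15-fold and 3.4-fold higher (adjusted p = 0.000101 and 0.00035), and set-2, which encodes the main H3K4 methyltransferase of the germline, 2.09-fold (adjusted p = 0.00111). For the large gene families below, the share called over all tested genes was 25.6% (12.3% higher, 13.3% lower), and neither a difference from it nor a direction was tested. F-box genes had 25.7% called, with 19 rises and 53 falls among 280 tested (24 and 41 with upper-quartile scaling). Nuclear hormone receptor genes had 17.9% called, with 4 rises and 30 falls among 190. C-type lectins had 22.5% called, with 18 rises and 7 falls among 111. Antimicrobial genes had 26.7% called, with 14 rises and 6 falls among 75, and among them lys-2 was 2.63-fold higher (adjusted p = 0.0018) and spp-18 3.35-fold lower (adjusted p = 0.00153). Neuropeptide genes had 9.47% called, 9 rises among 95. Collagens had 9.28% called, 9 rises among 97, although 39 of the 97 had a log2 fold change above 0 and the median was -0.18. Collagen falls appeared under other settings, 5 beside 13 rises without N2 replicate 1, 12 beside 19 rises without N2 replicate 2, and 3 beside 10 rises with DESeq2. The collagen sum was 12707 and 20336 CPM in SIN, 16868 and 20383 CPM in WT, against 7289.7 and 23738 CPM in N2, where N2 replicate 1 was the lowest library. These family counts were smaller without a SIN library: 5 falls for the F-box genes and 6 falls for the receptors and 2 rises for lectins with either left out in turn, and, without SIN replicates 1 and 2, 2 and 7 rises for antimicrobial genes, 1 and 2 for collagens and none for neuropeptides. Without N2 replicate 2 there were 103 falls for the F-box genes and 49 for the receptors.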
